A study of Mus musculus with 24 samples.

Results

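WT-labelled bone marrow-derived dendritic cells (BMDCs) and bone marrow-derived macrophages (BMDMs) were compared after exposure to DMXAA (Vadimezan), a small-molecule agonist of mouse STING. The members were the libraries labelled WT and DMXAA, 3 of BMDCs and 2 of BMDMs, which were 5 of the 24 libraries of the series. BMDM number 3 of that group was left out because it lacked macrophage transcripts: its FPKM summed over 18 macrophage markers was 165.6, against 12370 and 12870 in the other BMDM libraries. FPKM is the number of sequenced fragments per kilobase of gene, scaled to the size of the library, as the authors deposited it. The 5 WT-labelled control libraries, 3 of BMDCs and 2 of BMDMs, served for the comparison of the DMXAA responses.

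The series holds polyA RNA sequencing of BMDCs and BMDMs with and without DMXAA, from mice with or without Cre. All mice carried floxed alleles of Tmem173, the gene of STING, and had been given tamoxifen. The WT label stands for floxed mice without Cre, so both cell types compared here kept STING, and the CRE-labelled cells, in which Lyz2 drives a tamoxifen-inducible Cre, were not used. BMDMs were grown with L929-conditioned medium and BMDCs with GM-CSF and IL-4, so the culture medium and the cell type cannot be told apart. DMXAA was given at 40 µM according to the series design, whereas the study's methods give the same number in another unit, so that the concentration is uncertain. The study's methods place the tamoxifen injections in mice a few weeks old, but the age at which marrow was taken and the exposure time of the sequenced cultures are not given in the sources used here.

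STING is an adaptor of the endoplasmic reticulum that is activated by cyclic dinucleotides made when DNA appears in the cytosol. Once activated it recruits the kinase TBK1, which phosphorylates IRF3 and switches on type I interferon genes, and it also activates NF-κB and with it inflammatory cytokine genes. Secreted interferon then induces a broad set of interferon-stimulated genes. Macrophages are known for phagocytosis, lipid and iron handling and inflammatory output, and dendritic cells for the presentation of antigen to T cells, costimulation and the production of IL-12.

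The 5 libraries held 16470157 to 18731402 counts, and 10405 to 11373 genes reached an FPKM of 1. Across genes, Pearson's r of log2 expression was 0.964 to 0.978 between BMDC libraries, 0.964 between the BMDM libraries and 0.848 to 0.879 between cell types. Of 12 tested dendritic cell markers 10 were higher in BMDCs, and of 16 tested macrophage markers 10 were higher in BMDMs and none in BMDCs (edgeR, with none at an unadjusted p under 0.05 and none by DESeq2 or limma). Flt3 and Siglech, which mark conventional and plasmacytoid dendritic cells in vivo, were nearly absent from BMDCs (Flt3 at most 0.17 FPKM, Siglech at 0), and the macrophage markers Lyz2 and Mertk were not called in either direction. The BMDM cultures were uneven in fibroblast markers, whose summed FPKM was 26.8 in number 1 and 354.0 in number 2, against 48.99 to 68.71 in the BMDCs. In BMDCs most of that sum was Thy1 (21.8 to 42.6 FPKM) and Fn1 (10.7 to 23.1 FPKM), while Col1a1 was at most 0.808 FPKM there and at 1.58 and 15.1 FPKM in BMDMs. Of 10 tested fibroblast markers 7 were higher in BMDMs and 1, Thy1, in BMDCs in edgeR's test, and without BMDM number 2 none was higher in BMDMs (3, 1 and 4 without BMDC number 1, BMDC number 2 and BMDM number 1). Markers of mast cells and basophils summed to 72.85 to 163.4 FPKM in BMDCs and 6.423 to 9.282 in BMDMs. Most of the BMDM sum was Hdc, at 8.62 and 6.13 FPKM, which was at 0 and 0.030 FPKM in control BMDMs. All 4 tested members, Cpa3, Gata2, Kit and Hdc, were higher in BMDCs, Cpa3 at 55.4, 142.9 and 72.4 against 0.466 and 0 FPKM. Mcpt4, in contrast, was at 0 in all 5 libraries. Without BMDC number 2 or 3 the count was 2. Hdc lost its call in those fits and without either BMDM library. Cpa3, Gata2 and Kit reached the level needed for testing in BMDC libraries alone, so they could only come out higher there. Eosinophil markers summed to 92.56 to 195.0 FPKM in BMDCs and 1.021 to 3.195 in BMDMs. Of 5 tested members Ear2, Prg2 and Ear6 were higher in BMDCs, Ear2 at 185.3, 131.7 and 79.5 against 0 and 0.385 FPKM, whereas Epx, the eosinophil peroxidase, reached at most 0.026 FPKM. Without BMDC number 2 only Ear2 of these 3 was called. Ear2, Prg2 and Ear6 likewise reached the level needed for testing in BMDC libraries alone. The part of these other cells in the results below was not tested.

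Under DMXAA, 2708 of 11611 tested genes (23.3%) differed between the cell types at an adjusted p under 0.05 in edgeR's quasi-likelihood test, and these are referred to as called. A call compares levels under DMXAA and does not say whether the difference was also there without agonist. Of these, 1356 (11.7% of the genes tested) were higher in BMDCs and 1352 (11.6%) were higher in BMDMs. The counts in the gene lists below are to be read against these shares. The split depended on the scaling. With libraries scaled by their total counts alone, 1728 genes were higher in BMDCs and 995 in BMDMs, and the median log2 fold change over all genes was then 0.19. The count of called genes was 1665 without BMDC number 2 and 1452 without BMDM number 1. The median log2 fold change over all genes tested, BMDC minus BMDM, was 0.02. Of the 11611 genes tested 6234 had no overlap between the libraries of the cell types, so a lack of overlap alone says little. To be tested, a gene had to reach an FPKM of 1 in at least 2 of the libraries fitted. A gene near 0 in one cell type thus passed through the other alone and could only be called higher there. In bulk RNA, fewer cells that express a gene and less RNA per cell cannot be told apart. The labels do not say what separates the libraries of one group, so the p-values measure the spread between these libraries, which may be technical.

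**Figure D1:**
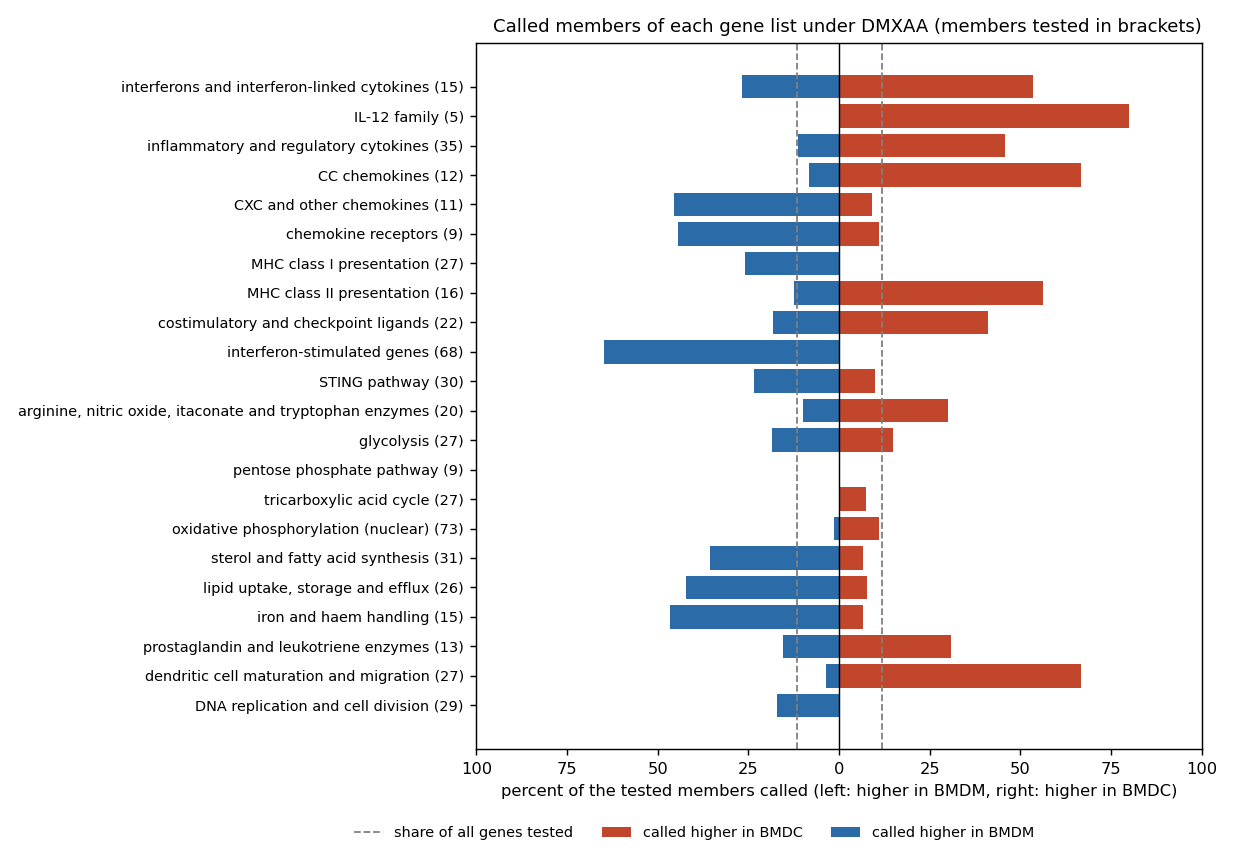
Percent of the tested members of each gene list that were called higher in BMDCs (bars to the right) or in BMDMs (bars to the left) under DMXAA, with the number of members tested in brackets; dashed lines mark the shares over all genes tested, 11.7% and 11.6%. IL-12 family, CC chemokine and dendritic cell maturation genes lean to BMDCs, and interferon-stimulated, iron handling and CXC chemokine genes lean to BMDMs.

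Transcripts of the interferon alpha genes lay on the BMDC side. Of 15 tested interferons and interferon-linked cytokines, 8 were higher in BMDCs and 4 were higher in BMDMs. All 8 that were higher in BMDCs were interferon alpha genes: Ifna1, Ifna2, Ifna4, Ifna5, Ifna6, Ifna9, Ifna11 and Ifna14. Each of them passed the filter on low values through BMDC libraries alone, so once tested it could only come out higher there. The count of 8 is therefore no evidence on the direction. Interferon alpha proteins signal through the type I interferon receptor on the producing cell and its neighbours. Their FPKM summed to 71.83, 74.95 and 148.5 in BMDC libraries 1, 2 and 3, from 623, 692 and 1360 counts, and to 0 and 0.12 in BMDM libraries 1 and 2, from 0 and 1 counts. The groups did not overlap, and all 5 control libraries were at 0 for these genes. The other 6 interferon alpha genes, with at most 0.728 FPKM in any library under DMXAA, were too low to be tested. Interferon alpha genes are near-identical copies in one cluster on chromosome 4, so the reads of single members are uncertain and the sum is the safer value.

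Ifna5 was present at 15.4, 22.5 and 38.7 FPKM in BMDCs and at 0 in both BMDM libraries. Against a floor of 3 counts per BMDM library the BMDC level was no less than 5.94 log2 units higher. The same bound was 5.18 for Ifna2 and 4.99 for Ifna9. Ifnb1, the interferon beta gene that STING and IRF3 induce directly, was at 57.0, 35.0 and 56.0 FPKM in BMDCs and at 2.48 and 19.2 FPKM in BMDMs. The BMDM libraries thus differed among themselves, and although the groups did not overlap, the log2 fold change of 2.20 ± 0.72 (SE) did not pass the test (adjusted p = 0.0650). Every control library was at 0 for Ifnb1.

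The interferon-linked cytokines that were higher in BMDMs were of another kind. Il18, an inflammasome-processed cytokine that raises interferon gamma, was at 1.35, 5.16 and 3.47 FPKM in BMDCs and at 49.4 and 28.1 FPKM in BMDMs (log2 fold change of -3.47 ± 0.51). Its soluble inhibitor Il18bp lay at 9.23, 17.8 and 13.2 against 73.9 and 50.6 FPKM (log2 fold change of -2.15 ± 0.31). Tnfsf10, which encodes the death ligand TRAIL, gave 14.7, 25.2 and 20.9 FPKM in BMDCs and 120.4 and 62.1 FPKM in BMDMs (log2 fold change of -2.11 ± 0.34). No BMDC library reached the lower BMDM library for any of these. Il15, a survival factor of NK and memory T cells, was at 80.3 to 93.9 FPKM in BMDCs and at 127.3 and 120.0 FPKM in BMDMs and was not called.

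Interferon-stimulated genes were higher in BMDMs. Of 69 interferon-stimulated genes in the list 68 were tested; 44 were higher in BMDMs, none was higher in BMDCs and 24 were not called. At an unadjusted p under 0.05 edgeR had 1 member higher in BMDCs, DESeq2 called 1 and limma 0. The median FPKM of the list was 91.8, 106.7 and 98.9 in BMDCs and 253.7 and 191.0 in BMDMs, and the median log2 fold change was -1.07, against 0.02 over all genes. The called differences ranged in size from 0.67 to 3.26 on the log2 scale. This count rested on the libraries used: it was 37, 27 and 26 without BMDC number 1, 2 and 3, 18 without BMDM number 1 and 45 without BMDM number 2. The count was 34 with scaling by total counts, under which 1 gene was higher in BMDCs. With the replicate number as a block across both cell types the count was 6.

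Ifit3, whose product belongs to a family that binds viral RNA, was at 444.3, 704.8 and 485.8 FPKM in BMDCs and at 4346 and 2627 FPKM in BMDMs. The log2 fold change was -2.62 ± 0.32 (adjusted p = 0.00140), and the groups were far apart. Its near-copy Ifit3b, with 54.8, 106.7 and 79.5 FPKM against 1098 and 513.4 FPKM (log2 fold change of -3.26 ± 0.40), may share reads with it. Tgtp1, an interferon-inducible GTPase that also has a close copy, was at 7.07 to 8.91 FPKM in BMDCs and at 53.6 and 24.3 FPKM in BMDMs (log2 fold change of -2.24 ± 0.32). Some of the most abundant members did not differ by the test. Isg15, a ubiquitin-like modifier, was at 3183, 2355 and 2321 FPKM in BMDCs and at 3753 and 3678 FPKM in BMDMs (log2 fold change of -0.46 ± 0.22, adjusted p = 0.189). Ifit1 was at 1082, 1228 and 1103 FPKM against 1779 and 1888 FPKM (log2 fold change of -0.64 ± 0.21, adjusted p = 0.0703). In both cases each BMDM library was above each BMDC library, but groups without overlap were common among all genes tested.

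**Figure D2:**
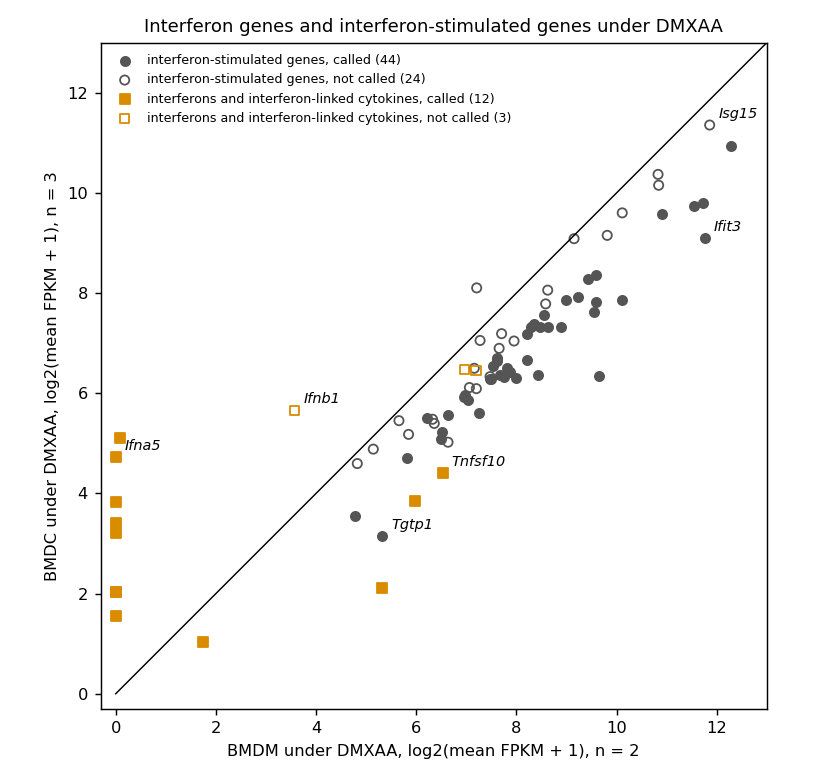
Mean expression under DMXAA of the tested interferon-stimulated genes (circles) and of interferons and interferon-linked cytokines (squares) in BMDMs (x axis, n = 2) and BMDCs (y axis, n = 3), as log2(mean FPKM + 1); filled symbols were called and the line marks equal levels. Of the interferon-stimulated genes 44 were called and all of these lie below the line, while the interferon alpha genes stand at the left edge.

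The promoters of these genes were searched for GAAA followed by any 2 bases and another GAAA, the core of the interferon-stimulated response element, on both strands in the 250 bases before the RefSeq start; matches may overlap one another. It occurred in 936 of 27025 genes with a promoter in RefSeq (3.46%), in 25 of the 51 tested interferon-stimulated genes that could be matched, and in all 8 called interferon alpha genes. Members called higher in BMDMs held it in 17 of 34 and members not called in 8 of 17. Of the 5 IL-12 family genes 3 could be matched and none of these held it, which is too few to compare with the other shares. The study itself predicted IRF3 elements on promoters of IL-12 family genes. The 4 promoters below are printed to show an interferon-stimulated gene that was higher in BMDMs, a chemokine that was higher in BMDMs, an interferon alpha gene present in BMDCs alone among these libraries, and the IL-12 subunit described next. All are from RefSeq on GRCm38.p6, 5′ to 3′ on the strand of the gene, and capitals mark the motif or its reverse complement. Ifit3 lies at chr19:34583279-34583528 on the plus strand, with matches that begin 156 and 122 bases before the start. For Cxcl10 the window is chr5:92348890-92349139 on the minus strand, with 1 match at 213 bases. For Ifna5 it is chr4:88835275-88835524 on the plus strand, with 1 match at 165 bases. For Il12b it is chr11:44399813-44400062 on the plus strand, with 0 matches. A match describes the letters only and shows no binding.
Ifit3: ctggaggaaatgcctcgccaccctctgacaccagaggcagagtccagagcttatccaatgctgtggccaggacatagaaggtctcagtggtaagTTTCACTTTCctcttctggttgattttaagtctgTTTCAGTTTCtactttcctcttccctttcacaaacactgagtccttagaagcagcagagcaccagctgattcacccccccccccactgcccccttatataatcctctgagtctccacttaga
Cxcl10: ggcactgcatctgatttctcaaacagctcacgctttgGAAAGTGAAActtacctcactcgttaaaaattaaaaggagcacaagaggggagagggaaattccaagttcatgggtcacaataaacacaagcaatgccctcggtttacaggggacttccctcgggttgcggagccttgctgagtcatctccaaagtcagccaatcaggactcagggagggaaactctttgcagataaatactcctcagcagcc
Ifna5: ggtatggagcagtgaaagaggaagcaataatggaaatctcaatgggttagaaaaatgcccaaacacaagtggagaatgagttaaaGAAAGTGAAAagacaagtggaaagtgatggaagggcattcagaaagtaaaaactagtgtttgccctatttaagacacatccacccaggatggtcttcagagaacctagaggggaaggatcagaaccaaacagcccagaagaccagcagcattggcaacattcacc
Il12b: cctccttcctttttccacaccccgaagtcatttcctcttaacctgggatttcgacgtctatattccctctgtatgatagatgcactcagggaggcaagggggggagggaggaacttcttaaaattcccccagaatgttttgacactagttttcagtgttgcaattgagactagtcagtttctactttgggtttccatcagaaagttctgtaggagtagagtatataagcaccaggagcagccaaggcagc

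IL-12 family transcripts were the second group on the BMDC side. The family is built from shared chains: p40 (Il12b) pairs with p35 (Il12a) to form IL-12 and with p19 (Il23a) to form IL-23, and Ebi3 pairs with p28 (Il27) to form IL-27. Of the 5 genes 4 were higher in BMDCs and none was higher in BMDMs (1 at an unadjusted p under 0.05 in edgeR, 0 by DESeq2 and limma). Il12a and Il23a passed the filter on low values through BMDC libraries alone, so once tested they could only come out higher there. Their part of the count is therefore no evidence on the direction. Il12b was at 137.9, 44.8 and 72.3 FPKM in BMDCs and at 1.26 and 0.669 FPKM in BMDMs. The log2 fold change was 6.52 ± 0.63 (adjusted p = 0.000572), with the lowest BMDC library far above both BMDM libraries. Il12a gave 1.68, 0.579 and 1.36 FPKM in BMDCs and 0 in both BMDM libraries, a difference of at least 3.12 on the log2 scale. It was too low to be tested when BMDC number 1 or 3 was left out. Il23a gave 6.62, 2.45 and 4.60 FPKM against 0 and 0.062 FPKM, a difference of at least 5.44 on the log2 scale.

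The IL-27 chains behaved differently from those of IL-12. Ebi3 was at 108.5, 55.4 and 64.6 FPKM in BMDCs and at 34.7 and 30.5 FPKM in BMDMs (log2 fold change of 1.27 ± 0.31, adjusted p = 0.0235), a call that was lost without either BMDM library. Il27 was at 69.3, 73.0 and 117.8 FPKM in BMDCs and at 149.8 and 140.8 FPKM in BMDMs, and was not called (log2 fold change of -0.69 ± 0.27, adjusted p = 0.110). Without BMDC number 3 it was called higher in BMDMs (log2 fold change of -0.95, adjusted p = 0.0328), and 3 members were then higher in BMDCs.

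Among 35 tested inflammatory and regulatory cytokines, 16 were higher in BMDCs, 4 were higher in BMDMs and 15 were not called. The median log2 fold change was 0.57. The pyrogenic cytokines were strongly divided. Il6, which drives fever, acute-phase proteins and T cell differentiation, was at 157.8, 141.9 and 122.1 FPKM in BMDCs and at 5.25 and 5.53 FPKM in BMDMs, a log2 fold change of 4.75 ± 0.25 (adjusted p = 8e-05). Il1b and Il1a, the 2 IL-1 receptor agonists, were likewise BMDC transcripts. Il1b was at 74.9, 69.0 and 45.9 against 0.742 and 0.436 FPKM (log2 fold change of 6.81 ± 0.40). Il1a was at 105.2, 112.9 and 62.6 against 0.582 and 1.54 FPKM (log2 fold change of 6.47 ± 0.53). In contrast, Tnf was at 166.2, 191.1 and 220.5 FPKM in BMDCs and at 166.3 and 253.3 FPKM in BMDMs; the groups overlapped and the log2 fold change was -0.08 ± 0.26.

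Further BMDC transcripts in this list were Il13, a type 2 cytokine, at 2.90, 7.03 and 5.28 FPKM against 0 in both BMDM libraries (at least 4.69 on the log2 scale), and Tnfsf4, which encodes the T cell costimulator OX40 ligand. Tnfsf4 was at 554.5, 325.0 and 377.5 FPKM in BMDCs and at 8.35 and 5.19 FPKM in BMDMs (log2 fold change of 6.01 ± 0.39). The other called members on this side were Il33, Osm, Lta, Ltb, Tnfsf8, Tnfsf9, Tnfsf15, Tnfsf18, Inhba, Hbegf and Clcf1. The 4 members higher in BMDMs, between 1 and 5 with a library left out, were growth and matrix factors and an antagonist: Igf1, Pdgfb, Spp1 and Il1rn. Igf1 was at 1.90, 0.563 and 0.636 FPKM in BMDCs and at 50.9 and 37.1 FPKM in BMDMs (log2 fold change of -5.37 ± 0.54). Pdgfb was at 0.453 to 0.710 FPKM in BMDCs and at 32.9 and 18.6 FPKM in BMDMs (log2 fold change of -5.41 ± 0.33). Spp1, the matrix protein osteopontin, was at 1701, 957.3 and 835.3 against 1808 and 6272 FPKM, with the higher value in the BMDM library that also held more fibroblast marker RNA. Its call (log2 fold change of -1.76 ± 0.53, adjusted p = 0.0484) was lost without BMDC number 2 or 3 or BMDM number 2. Il10, an anti-inflammatory cytokine, was low in both, with 0.693 to 1.16 FPKM in BMDCs and 1.89 and 2.75 FPKM in BMDMs (log2 fold change of -1.335 ± 0.46, adjusted p = 0.0783).

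Chemokines divided by family. Of 12 tested CC chemokines 8 were higher in BMDCs (5 without either BMDM library) and 1 in BMDMs, with a median log2 fold change of 1.13. Of 11 tested CXC and other chemokines 1 was higher in BMDCs and 5 were higher in BMDMs, with a median of -1.52. The CCR4 ligands Ccl17 and Ccl22, which attract activated and regulatory T cells, were nearly absent from BMDMs. Ccl17 was at 7090, 2344 and 2604 FPKM in BMDCs and at 0 in both BMDM libraries, a difference of at least 13.09 on the log2 scale. Ccl22 was at 4057, 1913 and 2012 FPKM against 1.52 and 2.26 FPKM (log2 fold change of 10.48 ± 0.61). Ccl24, an eosinophil attractant, was at 422.3, 139.0 and 118.3 FPKM against 0 and 0.107 FPKM, at least 10.28 on the log2 scale. BMDC number 1 was the highest library for all 3 of these genes. Over all listed CC chemokines the summed FPKM was 14120, 8892 and 9332 in control BMDCs and 524.7 and 770.4 in control BMDMs. Under DMXAA the sum was 32180, 19780 and 17360 against 6004 and 6125.

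The inflammatory CC chemokines were abundant in both cell types. Ccl2, a monocyte attractant, was at 971.2, 1054 and 813.5 FPKM in BMDCs and at 468.6 and 454.5 FPKM in BMDMs (log2 fold change of 1.09 ± 0.21, adjusted p = 0.0106). Ccl3 was at 1859, 1193 and 1238 against 621.8 and 689.2 FPKM (log2 fold change of 1.17 ± 0.26, adjusted p = 0.0164). Both calls were lost without either BMDM library. Ccl5, a T cell and NK cell attractant, reached 9417, 4396 and 4538 FPKM in BMDCs and 2861 and 3122 FPKM in BMDMs, and was not called (log2 fold change of 1.07 ± 0.37, adjusted p = 0.0771). The other called members higher in BMDCs were Ccl4, Ccl6 and Ccl9. The 1 member higher in BMDMs was Ccl12, a CCR2 ligand in the mouse, at 49.0, 41.4 and 34.1 against 258.9 and 167.6 FPKM (log2 fold change of -2.31 ± 0.25).

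The 3 interferon-inducible CXCR3 ligands, which attract effector T cells, were all higher in BMDMs. Cxcl9 was at 5.56, 7.38 and 4.92 FPKM in BMDCs and at 168.6 and 167.8 FPKM in BMDMs (log2 fold change of -4.77 ± 0.25, adjusted p = 8.02e-05). Cxcl10 was at 844.7, 1553 and 1071 against 4085 and 3244 FPKM (log2 fold change of -1.61 ± 0.31), a call lost without BMDC number 3. Cxcl11 was at 4.62, 10.9 and 7.46 against 78.5 and 43.0 FPKM (log2 fold change of -2.92 ± 0.40). Their levels thus spanned a wide range while the direction was shared. Pf4, platelet factor 4, was at 29.6 to 36.3 FPKM in BMDCs and at 138.1 and 77.4 FPKM in BMDMs. Cxcl3, a neutrophil attractant and the only CXC member called higher in BMDCs, was at 13.3, 16.2 and 9.40 against 0.076 and 0.297 FPKM (log2 fold change of 6.08 ± 0.54). Without BMDM number 2, 4 CXC members were higher in BMDCs.

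Of 9 tested chemokine receptors 1 was higher in BMDCs and 4 were higher in BMDMs. The 1 in BMDCs is near the 11.7% of all genes called higher there, and 11.6% of all genes were higher in BMDMs. Ccr7, which guides mature dendritic cells to lymph nodes, was at 732.1, 360.1 and 532.7 FPKM in BMDCs and at 0.179 and 0.105 FPKM in BMDMs (log2 fold change of 11.93 ± 0.56). In controls it was at 84.92, 95.25 and 158.1 FPKM against 0 and 0.024 FPKM. Cxcr4, the CXCL12 receptor, was at 9.15, 7.52 and 9.79 against 24.6 and 30.1 FPKM (log2 fold change of -1.58 ± 0.22). Cx3cr1, the fractalkine receptor of monocytes and macrophages, was at no more than 0.059 FPKM in BMDCs and at 3.53 and 4.35 FPKM in BMDMs. Xcr1, a receptor of cross-presenting dendritic cells, was low in both and higher in BMDMs, at 6.49 and 7.71 FPKM against 1.86 to 2.57 FPKM (log2 fold change of -1.68 ± 0.24).

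**Figure D3:**
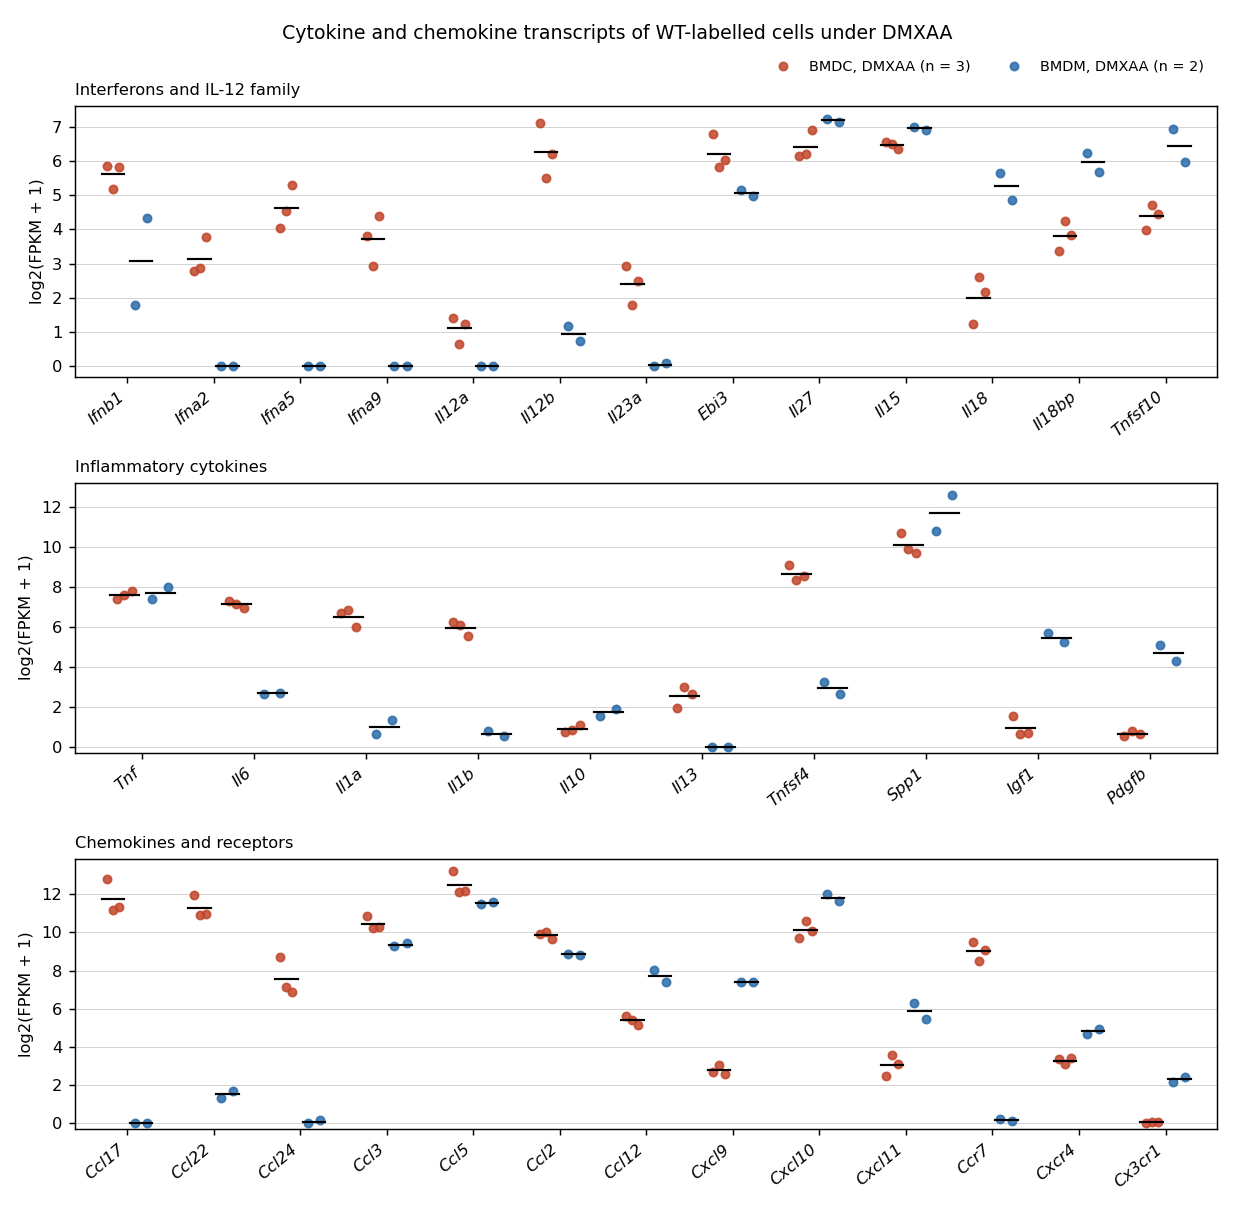
Expression of named interferon, cytokine, chemokine and chemokine receptor genes in each DMXAA library, as log2(FPKM + 1); points are libraries of BMDCs (red, n = 3) and BMDMs (blue, n = 2) and bars are their means on this scale. Il12b, Il6, Il1b, Ccl17, Ccl22 and Ccr7 are high in BMDCs and low in BMDMs, Cxcl9, Il18 and Igf1 show the reverse, and the groups overlap for Tnf.

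Antigen presentation differed by class. Of 16 tested MHC class II presentation genes 9 were higher in BMDCs and 2 were higher in BMDMs, with a median log2 fold change of 2.17. The class II chain genes were BMDC transcripts. H2-Ab1 was at 458.5, 411.8 and 195.9 FPKM in BMDCs and at 13.4 and 13.9 FPKM in BMDMs (log2 fold change of 4.75 ± 0.43). H2-Aa was at 470.4, 383.8 and 205.3 against 8.21 and 7.31 FPKM (log2 fold change of 5.56 ± 0.43). H2-Eb1 was at 525.1, 366.6 and 185.5 against 5.68 and 7.07 FPKM (log2 fold change of 5.85 ± 0.52). For all 3 genes BMDC number 1 was the highest and number 3 the lowest, and no BMDM library came near number 3. H2-Ab1 differed likewise without agonist, at 500.9, 381.7 and 217.2 FPKM in control BMDCs and at 4.40 and 6.92 FPKM in control BMDMs.

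Cd74, the invariant chain that guards the class II groove, was at 6338, 3934 and 2813 FPKM in BMDCs and at 54.3 and 60.6 FPKM in BMDMs (log2 fold change of 6.29 ± 0.46, adjusted p = 0.000239). Ciita, the master activator of class II genes, was at 6.51, 4.47 and 7.24 against 1.25 and 1.11 FPKM (log2 fold change of 2.41 ± 0.27). The peptide-loading genes H2-DMa, H2-DMb1, H2-DMb2 and H2-Oa were also called higher in BMDCs. The 2 members higher in BMDMs were lysosomal proteases that process antigen and the invariant chain. Ctsl was at 335.5, 128.1 and 102.1 against 886.4 and 454.0 FPKM (log2 fold change of -1.78 ± 0.51), and Lgmn at 230.2, 206.1 and 179.2 against 391.6 and 308.0 FPKM (log2 fold change of -0.72 ± 0.21). Neither call held in every fit with a library left out: Ctsl was lost without BMDC number 2 or 3 or BMDM number 1, and Lgmn without those or BMDM number 2.

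MHC class I presentation differed less. Of 27 tested genes 7 were higher in BMDMs, none was higher in BMDCs (1 at an unadjusted p under 0.05 in edgeR, 0 by DESeq2 and limma) and 20 were not called, and the median log2 fold change was -0.40. The class I heavy chain H2-K1 was at 1004, 1070 and 1039 FPKM in BMDCs and at 1275 and 1102 FPKM in BMDMs (log2 fold change of -0.14 ± 0.21), and its partner B2m at 5464, 5008 and 3843 against 5206 and 5222 FPKM (log2 fold change of -0.08 ± 0.24). Neither was called, and both log2 fold changes turned positive with scaling by total counts. Those called were H2-Q4, H2-M3, the transporter genes Tap1 and Tap2, the immunoproteasome genes Psmb8 and Psmb10 and the trimming peptidase Erap1. Psmb10 was at 248.0, 248.4 and 215.5 against 566.7 and 583.0 FPKM (log2 fold change of -1.23 ± 0.19, adjusted p = 0.00389). Tap1, which pumps peptides into the endoplasmic reticulum, was at 163.7, 171.8 and 176.8 against 334.1 and 251.4 FPKM (log2 fold change of -0.72 ± 0.21, adjusted p = 0.0432), a call lost without any 1 of the 5 libraries. The class I count fell to between 1 and 3 when a library was left out and to 1 with total-count scaling. The called share was 25.9%, against 23.3% over all genes in either direction and 11.6% in the BMDM direction. H2-Q genes are close copies and may share reads.

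Costimulatory ligands leaned to the BMDCs, with 9 of 22 tested costimulatory and checkpoint ligands higher there, 4 higher in BMDMs (1 without BMDC number 2) and 9 not called. Those higher in BMDCs include Tnfsf4, Tnfsf9 and Tnfsf18, which were already counted among the cytokines above. Cd80, a ligand of CD28 and CTLA-4, was at 73.3, 53.7 and 61.9 FPKM in BMDCs and at 3.77 and 5.14 FPKM in BMDMs (log2 fold change of 3.86 ± 0.27, adjusted p = 0.000215). Its relative Cd86 was not called, at 227.4, 96.8 and 118.1 against 87.8 and 105.1 FPKM. Cd40, the receptor through which T cells license antigen-presenting cells, was not called either, at 232.6, 155.0 and 180.3 against 300.5 and 279.8 FPKM (log2 fold change of -0.57 ± 0.22). Cd70, the CD27 ligand, was at 9.54, 3.04 and 3.39 FPKM in BMDCs and at 0 in both BMDM libraries, at least 4.24 on the log2 scale.

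The PD-1 ligands went in opposite directions. Pdcd1lg2 (PD-L2) was at 175.8, 101.9 and 87.0 FPKM in BMDCs and at 0.108 and 0.589 FPKM in BMDMs (log2 fold change of 8.38 ± 0.66). Cd274 (PD-L1) was at 360.7, 483.6 and 510.3 against 963.8 and 763.9 FPKM (log2 fold change of -0.88 ± 0.25, adjusted p = 0.0394), and this call was lost without any 1 of the 5 libraries. The further inhibitory molecules Havcr2 (TIM-3), Vsir (VISTA) and Cd276 (B7-H3) were also called higher in BMDMs. Havcr2 was at 3.88 to 5.21 against 31.2 and 20.5 FPKM (log2 fold change of -2.44 ± 0.24). The calls for Vsir (-1.26 ± 0.35) and Cd276 (-2.54 ± 0.60) were lost without some libraries, BMDC number 2 among them for both.

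The list of dendritic cell maturation and migration genes had 18 of 27 tested members higher in BMDCs, 1 higher in BMDMs and a median log2 fold change of 3.94. It shares Ccr7, Ccl17, Ccl22, Cd83, Cd200 and Batf3 with the lists above and Relb, Il4i1 and Eno2 with lists below. The 1 member higher in BMDMs was Eno2, a neuronal enolase, with 0.698 to 1.18 against 2.03 and 3.27 FPKM. The transcription factor Irf4, which directs one branch of dendritic cells, was at 147.5, 84.9 and 118.9 FPKM in BMDCs and at 0 and 0.198 FPKM in BMDMs (log2 fold change of 10.10 ± 0.83). Zbtb46, which marks conventional dendritic cells, was at 6.76, 4.46 and 6.58 against 0.042 and 0.195 FPKM (log2 fold change of 5.61 ± 0.56). The integrin Itgax (CD11c) was at 260.3, 299.4 and 321.2 against 29.8 and 46.1 FPKM. Irf4, Zbtb46 and Itgax are dendritic cell markers outside this list. In controls Irf4 was at 67.1, 66.3 and 66.5 FPKM in BMDCs and at 0.270 and 0.106 FPKM in BMDMs. Itgax was at 286.3, 302.9 and 307.2 against 45.1 and 45.5 FPKM in controls.

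Tmem173, the gene of STING itself, was at 55.3, 34.6 and 35.9 FPKM in BMDCs and at 31.9 and 22.8 FPKM in BMDMs, and was not called (log2 fold change of 0.67 ± 0.27, adjusted p = 0.117). Of 30 tested pathway genes 3 were higher in BMDCs and 7 were higher in BMDMs, a called share of 33.3% against 23.3% over all genes, with a median log2 fold change of -0.19. Those higher in BMDCs belong to NF-κB signalling: its inhibitor Nfkbia at 461.1, 414.1 and 441.9 against 206.7 and 248.0 FPKM (log2 fold change of 0.998 ± 0.20), the subunit Rel (0.89 ± 0.23) and the ubiquitin ligase Traf6 (0.85 ± 0.23). Nfkbia lost its call without BMDM number 1, and Rel and Traf6 lost theirs in more of these fits. Those higher in BMDMs were Tbk1, Irf7, Rela, Ifi204, Enpp1, Slc19a1 and Nlrc3. Irf7 and Ifi204 were also counted among the interferon-stimulated genes. Enpp1, the enzyme that degrades the STING ligand cGAMP outside the cell, was at 0.200 to 0.320 against 1.78 and 1.10 FPKM (log2 fold change of -2.38 ± 0.35). Slc19a1, a folate carrier that also imports cyclic dinucleotides, was at 0.391 to 0.657 against 1.98 and 2.22 FPKM (log2 fold change of -1.93 ± 0.35). The BMDM count of 7 fell to 2 without BMDM number 1 and to 3 without BMDM number 2.

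Metabolic output differed by pathway. In the enzymes of arginine, nitric oxide, itaconate and tryptophan, 6 of 20 tested members were higher in BMDCs and 2 in BMDMs, the latter between 0 and 2 with a library left out. Over all genes 11.7% were higher in BMDCs and 11.6% in BMDMs, so the 2 in BMDMs are near that share. Arg1, which breaks down arginine, was at 239.4, 136.8 and 61.1 FPKM in BMDCs and at 0.159 and 0.031 FPKM in BMDMs, a log2 fold change of 10.67 ± 0.93 (adjusted p = 0.000423). Nos2, which makes nitric oxide from the same substrate, was at 134.5, 70.2 and 150.0 against 84.4 and 67.6 FPKM and was not called. Acod1, the itaconate-producing enzyme, was at 1902, 1529 and 1518 against 2691 and 2616 FPKM and was not called (log2 fold change of -0.64 ± 0.22, adjusted p = 0.0787). The tryptophan-degrading genes Ido1 and Kynu were higher in BMDCs: Ido1 at 2.18, 1.19 and 2.03 against 0.388 and 0.228 FPKM, and Kynu at 42.6, 23.2 and 27.7 against 3.77 and 1.01 FPKM (log2 fold change of 3.77 ± 0.58). The Ido1 call (2.60 ± 0.54) was lost without BMDM number 2. The 2 members higher in BMDMs, Ncf1 and Cybb, belong to the phagocyte NADPH oxidase, and both calls were lost without some libraries. Cybb was at 173.7, 224.9 and 239.5 against 553.0 and 333.4 FPKM (log2 fold change of -0.998 ± 0.28).

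Glycolysis was not shifted as a whole, with 4 of 27 tested genes higher in BMDCs, 5 higher in BMDMs and a median log2 fold change of 0.015, against 0.02 over all genes. With a library left out the counts were 1 to 3 in each direction. Single steps were divided between isoenzymes. The hexokinase Hk2 was at 51.0, 35.7 and 50.3 FPKM in BMDCs and at 16.4 and 21.5 FPKM in BMDMs (log2 fold change of 1.32 ± 0.25), whereas Hk3 was at 275.4, 241.2 and 299.4 against 635.4 and 491.2 FPKM (log2 fold change of -0.996 ± 0.21). The phosphofructokinase Pfkp was at 75.3, 67.7 and 83.8 against 18.4 and 18.7 FPKM (log2 fold change of 2.08 ± 0.21), whereas Pfkfb3, whose product activates phosphofructokinase, was at 7.27, 9.31 and 10.1 against 58.0 and 38.5 FPKM (log2 fold change of -2.38 ± 0.25). Of these, Hk2 lost its call without BMDM number 1, and Hk3 without BMDC number 2 or BMDM number 1. The glucose transporter Slc2a1, at 30.4 to 35.7 against 23.1 and 27.0 FPKM, and lactate dehydrogenase Ldha, at 344.1 to 474.5 against 377.4 and 458.9 FPKM, were not called.

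In mitochondrial pathways 2 of 27 tested tricarboxylic acid cycle genes, Mdh2 and Pdha1, and 8 of 73 tested nuclear genes of oxidative phosphorylation were higher in BMDCs, both shares below the 11.7% over all genes. For oxidative phosphorylation this turned round in other fits: DESeq2 called 18 members (15.5% of all genes), the fit of 10 WT-labelled libraries 15 (13.8% of all genes) and total-count scaling 20 (14.9% of all genes). The median log2 fold changes were 0.26 and 0.46. The counts moved with single libraries, the tricarboxylic acid cycle between 0 and 2 and oxidative phosphorylation between 0 and 9. Cox7a2l, a respiratory chain assembly factor, was at 483.6, 339.4 and 257.9 against 135.8 and 142.6 FPKM (log2 fold change of 1.42 ± 0.29), a call lost without BMDM number 1. The 1 member higher in BMDMs was the cytochrome oxidase subunit Ndufa4, at 11.2, 12.5 and 13.8 against 54.4 and 66.2 FPKM (log2 fold change of -2.22 ± 0.21, adjusted p = 0.000546). None of the 9 tested genes of the pentose phosphate pathway was called in edgeR's test, where 4 had an unadjusted p under 0.05, 2 in each direction, and DESeq2 called 3 and limma 0.

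Lipid genes leaned to the BMDMs. In lipid uptake, storage and efflux 11 of 26 tested genes were higher in BMDMs and 2 were higher in BMDCs, with a median log2 fold change of -0.79. The BMDM count was 7 without BMDC number 2 or 3. Apoe, the lipid carrier of macrophages, was at 2.29, 2.03 and 2.26 FPKM in BMDCs and at 2383 and 2535 FPKM in BMDMs (log2 fold change of -10.08 ± 0.27, adjusted p = 1.16e-05). The fatty acid binder Fabp4 was at 1.37, 0.395 and 0.768 against 19.1 and 31.6 FPKM (log2 fold change of -4.87 ± 0.48). Nr1h3, the oxysterol-sensing receptor LXRα, was at 2.55, 4.36 and 3.59 against 43.7 and 21.7 FPKM (log2 fold change of -3.16 ± 0.35). Abcg1, a cholesterol exporter and a known target of this receptor, was higher in BMDCs, at 147.8, 209.4 and 172.1 against 97.9 and 76.1 FPKM (log2 fold change of 1.08 ± 0.24), a call lost without BMDC number 2 or either BMDM library. Olr1, a scavenger receptor for oxidised LDL, was at 110.4, 66.9 and 78.7 against 1.78 and 2.21 FPKM (log2 fold change of 5.46 ± 0.33).

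Of 31 tested sterol and fatty acid synthesis genes 11 were higher in BMDMs and 2 in BMDCs, and the BMDM count was 10, 5 and 5 without BMDC number 1, 2 and 3 and 5 and 7 without BMDM number 1 and 2. The sterol demethylase Cyp51 was at 2.15, 1.32 and 1.52 against 7.91 and 8.37 FPKM (log2 fold change of -2.24 ± 0.26), and the desaturase Fads1 at 2.66 to 2.94 against 9.52 and 8.87 FPKM. On the BMDC side were Mvd, an enzyme of the mevalonate pathway, at 27.1 to 29.7 against 5.99 and 9.38 FPKM (log2 fold change of 1.92 ± 0.26), and the desaturase Scd2, at 13.2, 13.3 and 7.94 against 0.292 and 2.23 FPKM (log2 fold change of 3.20 ± 0.74), which lost its call without BMDC number 2.

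Of 15 tested iron and haem genes 7 were higher in BMDMs and 1 in BMDCs, with a median log2 fold change of -0.96; without BMDC number 3 or BMDM number 2 the BMDM count was 4. Slc11a1, the phagosomal iron transporter, was at 17.1, 28.2 and 30.1 FPKM in BMDCs and at 136.6 and 111.9 FPKM in BMDMs (log2 fold change of -2.25 ± 0.28). The other called BMDM members were Hmox1, Slc11a2, Tfrc, Fth1, Spic and Steap3. Lcn2, which captures bacterial siderophores, was the 1 BMDC member, at 15.0, 11.5 and 8.80 against 1.01 and 0.765 FPKM (log2 fold change of 3.78 ± 0.34).

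Of 13 tested prostaglandin and leukotriene enzymes 4 were higher in BMDCs, namely Alox5, Alox15, Ltc4s and Ptgs1, and 2 were higher in BMDMs, namely Hpgds and Ptges. Over all genes 11.7% were higher in BMDCs and 11.6% in BMDMs, so the count of 2 is near that share. The lipoxygenase Alox5, the first enzyme of leukotriene synthesis, was at 10.4, 16.5 and 23.8 FPKM in BMDCs and at 0.151 and 0.219 FPKM in BMDMs (log2 fold change of 6.53 ± 0.52). Alox15 was at 4.35, 5.80 and 9.27 against 0.108 and 0.056 FPKM, at least 6.07 on the log2 scale. The cyclooxygenase Ptgs1, which makes the common precursor of prostaglandins, was at 18.0, 11.5 and 9.20 against 1.89 and 2.17 FPKM (log2 fold change of 2.70 ± 0.33). The prostaglandin D synthase Hpgds was at 0.204 to 0.629 against 22.9 and 21.9 FPKM (log2 fold change of -5.80 ± 0.43), and was too low to be tested when either BMDM library was left out. The prostaglandin E synthase Ptges was at 2.91, 4.76 and 4.98 against 30.6 and 26.5 FPKM (log2 fold change of -2.70 ± 0.28). Alox15 is also known from eosinophils and Hpgds from mast cells, whose summed markers are given above.

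Of 29 tested DNA replication and cell division genes 5 were higher in BMDMs and none in BMDCs (2 at an unadjusted p under 0.05 in edgeR, 2 by DESeq2, 0 by limma). These were Mcm6, Pcna, Cdt1, Cenpe and Tpx2. The called share of 17.2% was below the 23.3% called in either direction over all genes. It was above the 11.6% of all genes that were called higher in BMDMs. Pcna, the polymerase clamp, was at 95.7, 86.0 and 68.8 against 413.9 and 363.6 FPKM (log2 fold change of -2.17 ± 0.21), and Mcm6, a part of the replicative helicase, at 10.6 to 11.9 against 64.5 and 50.6 FPKM. Without BMDM number 1 the count was 13, and without BMDC number 3 it was 3.

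**Figure D4:**
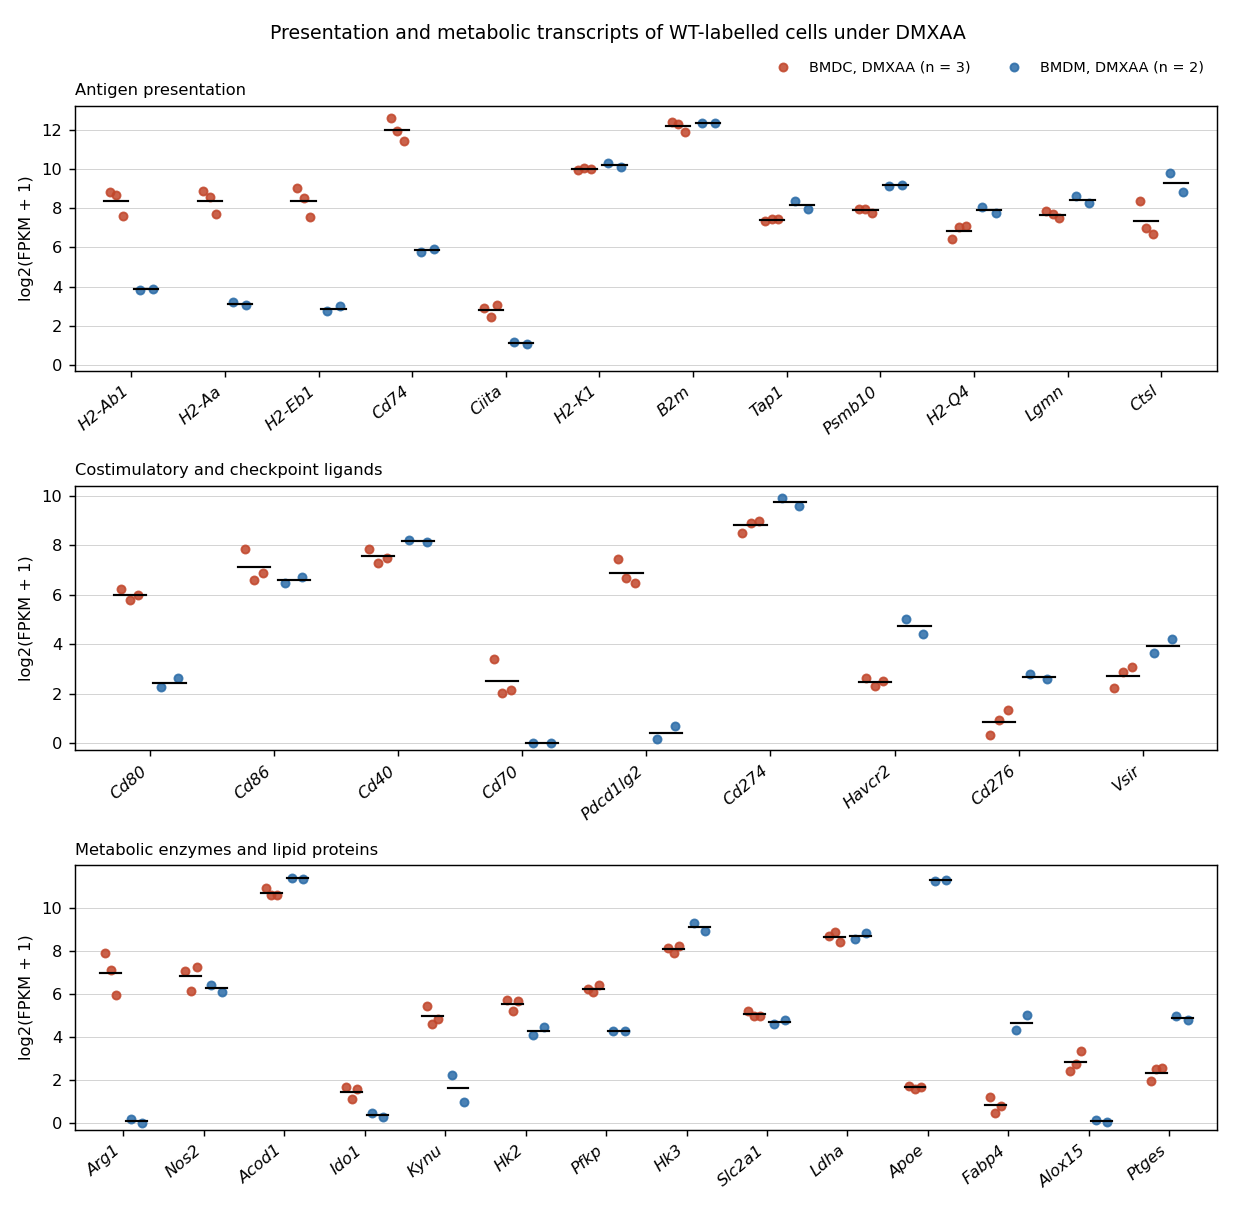
Expression of named antigen presentation, costimulatory and metabolic genes in each DMXAA library, as log2(FPKM + 1); points are libraries of BMDCs (red, n = 3) and BMDMs (blue, n = 2) and bars are their means on this scale. MHC class II genes, Cd80, Pdcd1lg2 and Arg1 are higher in BMDCs, Apoe, Fabp4 and Ptges are higher in BMDMs, and H2-K1, B2m, Nos2 and Ldha lie close together.

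The 10 called genes with the highest fitted fold change in each direction, among those with a mean of at least 5 FPKM and no overlap, were mostly near 0 in the other cell type. For genes at 0 the fitted value does not set an order, and their bounds can lie below the fold change of genes not in this group, such as Ccr7. On the BMDC side the group held, besides Ccl17, the genes Plet1, Retnla, Car4, Cyp11a1, Chil3, Cd226, Gm6093, Rbp4 and Wfdc21. The chitinase-like Chil3 was at 8127, 14510 and 7569 FPKM in BMDCs and at 3.14 and 0.721 FPKM in BMDMs, and Retnla, a resistin-like protein induced by IL-4, was at 714.6, 373.1 and 268.6 FPKM against 0 in both BMDM libraries. The bounds were at least 10.16 for Retnla, 10.19 for Plet1, 9.93 for Car4 and 10.76 for Rbp4 on the log2 scale. On the BMDM side it held Apoe, the complement genes C1qa, C1qb and C1qc, Adra1a, Cd300ld4, Folr2, Cd72, Hmga2 and Cadm1. C1qc was at 1.27, 0.374 and 0.755 FPKM in BMDCs and at 415.8 and 334.1 FPKM in BMDMs (log2 fold change of -8.83 ± 0.45). In controls C1qc was at 2.177, 0.870 and 1.345 FPKM against 422.1 and 295.1 FPKM. Cd300ld4, at 41.3 and 1.38 FPKM, and Adra1a, at 9.16 and 1.74 FPKM, were unequal between the BMDM libraries.

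The responses themselves were compared as the DMXAA effect in BMDCs minus that in BMDMs, fitted over the 10 WT-labelled libraries. A higher effect can be a larger rise or a smaller fall. Of 12708 tested genes 211 were called (1.66%). The effect was higher in BMDMs for 169 of them (1.33%) and in BMDCs for 42 (120 and 52 with total-count scaling). The count fell to 32, 57 and 22 without BMDC number 1, 2 and 3 and to 68 without BMDM number 1. Control and DMXAA libraries of one number went together within a cell type, and with these numbers as a block 1279 genes were called (10.1%), 831 of them in the BMDM direction (6.54%) and 448 in the BMDC direction. Of 68 tested interferon-stimulated genes 20 were called, 19 in the BMDM direction; with the block 43 were called, 38 in that direction and 5 in the other. Of 27 tested MHC class I genes 7 were called, all in the BMDM direction, and 17 with the block, again all in that direction. These comparisons share the DMXAA libraries with those above, so they add no independent evidence on them.

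Tap1 shows what such a difference consisted of. It rose in BMDCs from between 18.8 and 20.1 FPKM in controls to 163.7, 171.8 and 176.8 FPKM and in BMDMs from 8.68 and 5.13 to 334.1 and 251.4 FPKM, so that the order of the cell types was turned round, and the difference of the rises was -2.25 ± 0.31 on the log2 scale (adjusted p = 0.01001). Psmb10 started at 51.9 to 75.3 FPKM in BMDCs and at 39.3 and 40.2 FPKM in BMDMs and ended as given above (-1.84 ± 0.26). Ciita did not rise evenly in BMDCs, with controls at 6.23, 5.37 and 3.90 FPKM, but went from 0.015 and 0.035 to 1.25 and 1.11 FPKM in BMDMs (-5.23 ± 0.49, adjusted p = 0.00182). This was the only 1 of 11 named genes with a called interaction whose call held in each fit that left out 1 number of a cell type.

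Several genes were on in control BMDCs and off in control BMDMs. Ccl5 rose from 177.7, 113.4 and 196.5 FPKM in control BMDCs and from 0.153 and 1.88 FPKM in control BMDMs, so that DMXAA brought the cell types nearer (-6.23 ± 0.91). Il6 was at 10.3, 11.5 and 11.1 FPKM in control BMDCs and at 0 and 0.059 FPKM in control BMDMs (-3.65 ± 0.58). Nos2 was at 2.85, 0.808 and 1.74 FPKM in control BMDCs and at 0 in both control BMDM libraries. For Nos2, Tgtp1, Tnfsf4 and Il6, where the BMDM controls held at most 3 counts per library, the fitted difference depends on how zeros are handled and is no bound. Arg1 went the other way from most genes: its BMDC level was 566.2, 362.9 and 200 FPKM in controls, above the DMXAA library of the same number in each case, and its interaction was not called. Genes at 0 in every control library, such as Ifnb1 and the interferon alpha genes, give no usable estimate of this difference.

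**Figure D5:**
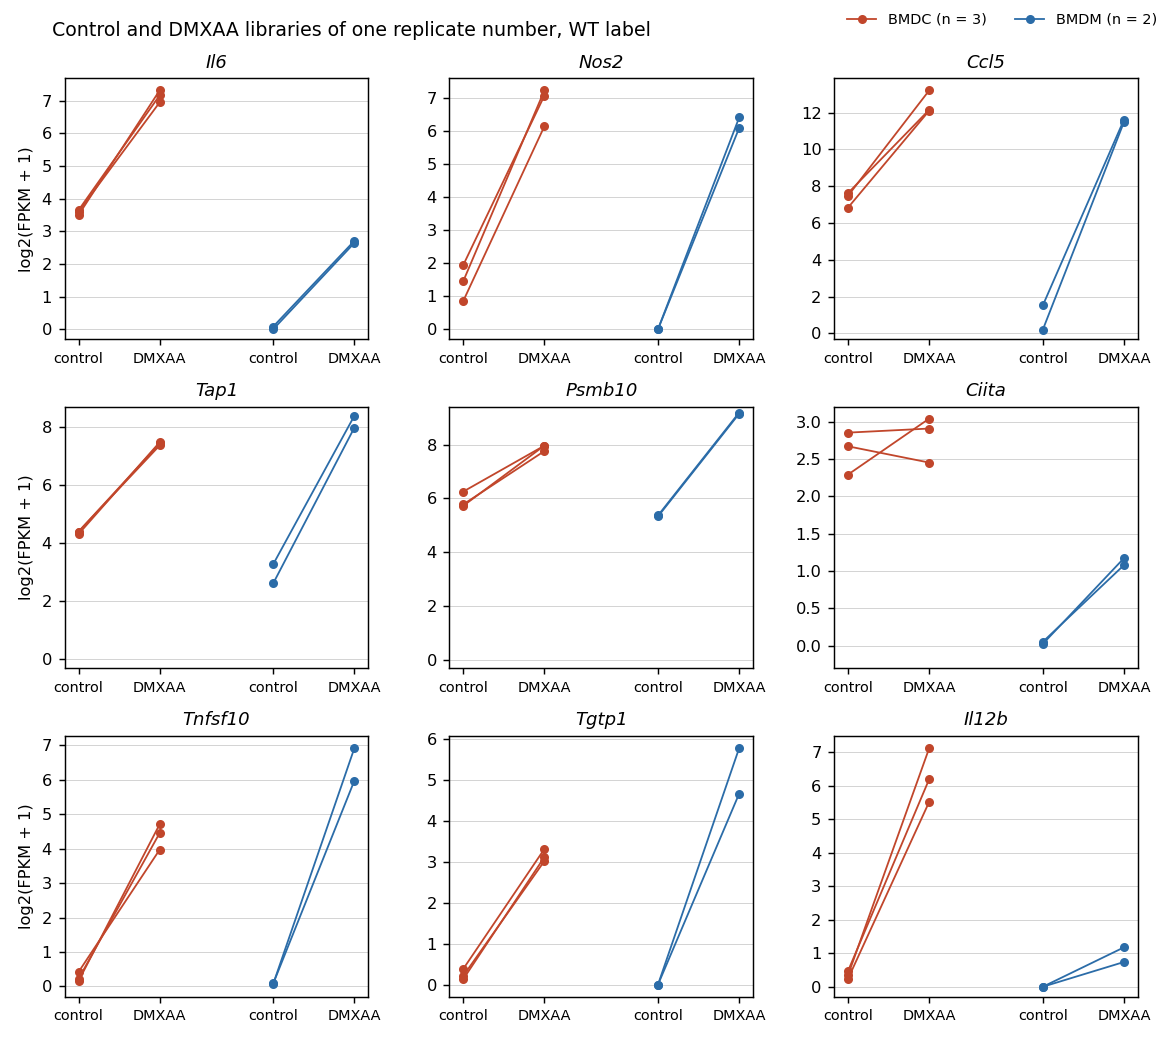
Expression of 9 genes in control and DMXAA libraries of BMDCs (red, 3 pairs) and BMDMs (blue, 2 pairs), as log2(FPKM + 1); a line joins the libraries of one replicate number. For Ccl5, Tap1, Psmb10 and Tnfsf10 the BMDM lines are steeper, Ciita is flat or mixed in BMDCs and rises in BMDMs, and Il12b ends at 44.8 to 137.9 FPKM in BMDCs and at 0.669 and 1.26 FPKM in BMDMs.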

How the data were processed

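PolyA RNA libraries (NEBNext Ultra) were sequenced by the authors. Per the submitters' processing notes the tools were CASAVA 1.8, fastp, HISAT2 2.0.5, featureCounts 1.5.0-p3 and DESeq2 1.20.0, with GRCm38 (mm10). The annotation release and the strand setting of the counting are not given in the sources used here. For 54532 genes the authors deposited raw counts and FPKM values, scaled by gene length and library size. The deposited table also holds the authors' log2 fold changes and p-values, which were not used. All per-library columns were matched to a sample, and 0 were left unmatched.

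Genes with a deposited FPKM of at least 1 in at least 2 of the libraries fitted were tested on the counts with edgeR 4.0.16 (quasi-likelihood, TMM scaling, two-sided) in R 4.3.3. P-values were adjusted by Benjamini-Hochberg over all genes tested, and a gene was called at an adjusted p under 0.05. Log2 fold changes are BMDC minus BMDM, and their SE was derived from the F statistic. The second fit took the 10 WT-labelled libraries (16470157 to 18912887 counts) and tested the cell type by DMXAA interaction. The procedure was tested on simulated data. A gene with at most 3 counts in every library of one group is given by its bound against a floor of 3 counts per library. Fitted fold changes between cell types of such genes entered the choice of named genes and the list medians, but are not printed for single genes. Fitted interactions are printed also for genes whose BMDM controls held at most 3 counts, and are no bounds there. Bounds and floors cover counting error only, since PCR reads lacking molecular identifiers do not count independent molecules.

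The gene lists held 741 entries, of which 736 were in the table, in 30 lists. The members and lists were chosen with earlier results of these data known. The 144 genes named with values were a core set, the 3 called genes with the largest fold change per list and direction, and the 10 called genes with the largest fold change per direction over all genes, the last only where the higher group had a mean FPKM of 5 or more and the groups did not overlap. Other called members are listed without values, and single marker genes were chosen after their values were seen.

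Same-numbered control and DMXAA libraries deviated together within a cell type (Pearson's r across 12708 genes of 0.63, 0.33 and 0.45 in BMDCs and 0.61 in BMDMs), but same-numbered BMDCs and BMDMs did not (-0.12 in controls and -0.19 under DMXAA). What a number stands for is not given in the labels. Alternatives used DESeq2 1.42.0, limma 3.58.1 on log2(FPKM + 1) and log2(FPKM + 0.1), other scalings, filters and thresholds, and left out each library in turn. Promoters were taken from RefSeq tables on GRCm38.p6, matched by symbol. Lymphocyte, neutrophil and leukocyte markers were checked as well: none of 14 lymphocyte markers passed the filter, their summed FPKM being at most 1.48, and neutrophil markers summed to 58.8 to 88.3 FPKM in the 5 libraries. Of 12 leukocyte markers 2 were higher in each cell type.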

Additional observations from a re-analysis of the deposited data

Results flagged for a closer look

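For 11 named genes the DMXAA effect itself differed between the cell types (edgeR, interaction term over the 10 WT-labelled libraries, given as the effect in BMDCs minus that in BMDMs on the log2 scale). In all 11 the effect was higher in BMDMs. The differences were -3.65 for Il6 (adjusted p = 0.0166), -6.23 for Ccl5 (0.0125), -2.25 for Tap1 (0.01001) and -5.23 for Ciita (0.00182). They were -9.41 for Nos2 (0.0191), -2.75 for Il18bp (0.0150), -3.88 for Tnfsf10 (0.0282), -1.84 for Psmb10 (0.0112), -6.51 for Tnfsf4 (0.0443), -8.62 for Tgtp1 (0.0150) and -3.41 for Spic (0.0344), a transcription factor of iron-recycling macrophages.

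Each of the 11 was also called with the replicate number as a block within each cell type. Without that block, calls were lost when 1 number of a cell type was left out, for 8, 8 and 10 of the 11 genes without BMDC number 1, 2 and 3 and for 7 and 2 genes without BMDM number 1 and 2, and for Ciita in none of these fits. In 4 of the 11 genes every BMDM control library held at most 3 counts, so that the fitted value is no bound. In both controls and DMXAA libraries, BMDM number 2 held more fibroblast marker RNA than number 1 (332.2 against 27.98 FPKM in controls), and its part in these differences was not tested.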

How the results depend on the processing

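Against 2708 genes called under DMXAA, 4247 of 25261 were called with no filter on low values, 261 with BMDM number 3 included, 4092 in a fit of 20 libraries of all groups, 1222 at an adjusted p under 0.01, 1022 with the replicate number as a block, and 1452 to 2323 with a library left out. DESeq2 called 3478 and limma 2510. Against 211 interactions, 830 were called with no filter, 674 by DESeq2, 349 with 20 libraries, 44 at an adjusted p under 0.01, 1279 with the replicate block within cell types and 22 to 278 with a number left out. With BMDM number 3 included edgeR called 0 (330 at an unadjusted p under 0.05). The labels do not say whether a number pairs BMDCs with BMDMs, and the correlations between same-numbered libraries cannot settle it. How the calls lost under the first block should be read is therefore open. Of 124 called named genes 78 were tested and called in every fit with a library left out, 32 were lost in at least 1 and 15 were too low to be tested in at least 1, 33 were lost under the block and 8 with total-count scaling; DESeq2 and median-of-ratios scaling lost 0.

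The direction turned for genes that were not called. With total-count scaling Tnf was at 0.0886, H2-K1 at 0.0339 and B2m at 0.0852 (log2, BMDC minus BMDM), and with the block B2m was at 0.0508 and Mertk at -0.17. Ldha was at -0.0403 and -0.0404 in the limma fits and at -0.0010 in the fit of 10 WT-labelled libraries. With a library left out the values ran from -0.3857 to 0.2743 for Tnf, from -0.1610 to 0.1736 for Ldha, from -0.1130 to 0.7123 for Mertk and from -0.1619 to 0.0831 for B2m. With BMDM number 3 included, Isg15 was at 0.0741, Tnf at 0.53, Il15 at 0.13, H2-K1 at 0.38, B2m at 0.36, Cd40 at 0.0325, Ldha at -0.0002 and Lyz2 at 0.19, and the called genes Pdha1, Scd2, Lcn2 and Ptgs1 turned to -0.19, -1.86, -2.41 and -1.45, none past the threshold. Under DMXAA, BMDM number 3 held 2682 FPKM summed over fibroblast markers, against 26.8 and 354.0 in BMDM numbers 1 and 2. Its leukocyte markers summed to 84.55 FPKM, against 3980 and 3825. The cause of the changes in direction was not tested.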

Other observations

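Some of the genes that separated the activated cells most have no place in the lists above. In BMDCs, Car4, a membrane carbonic anhydrase, was at 78.8, 170.2 and 102.4 FPKM, Cyp11a1, which starts steroid synthesis from cholesterol, at 16.4, 21.1 and 16.5 FPKM, and Cd226, an activating receptor of lymphocytes, at 26.2, 17.9 and 16.4 FPKM, all with 0 in both BMDM libraries. In BMDMs, Cd72, a C-type lectin known from B cells, was at 62.3 and 88.6 FPKM against 0.224 to 0.364 FPKM in BMDCs (log2 fold change of -7.94 ± 0.33). The chromatin protein Hmga2 was at 51.1 and 22.4 FPKM against at most 0.299 FPKM (log2 fold change of -7.69 ± 0.75), and the folate receptor Folr2 at 20.8 and 14.6 FPKM against at most 0.127 FPKM.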
